A study of Mus musculus with 5 samples.

Results

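The contractile genes of myoepithelium were described in cells sorted from mouse trachea: Acta2, Actg2, Tagln, Cnn1, Myh11, Mylk, Myl9, Tpm1, Tpm2 and Oxtr. They were chosen by name, and every probe set that the array annotation gives to a single one of them was taken, which gave 22 probe sets for 10 of the 18193 genes on the array. A probe set is a group of short probes whose brightness is summarised as 1 intensity, in arbitrary units. The duct group held 3 arrays: surface epithelium was stripped from the upper part of the trachea with the enzyme pronase, and cells carrying a surface antigen were sorted from the tissue that remained, which holds the ducts of the submucosal glands. For the 2 arrays of the basal group, dispase was used to release the surface epithelium of the lower part, and the sort took the same antigen together with the integrin ITGA6. All mice were untreated C57BL/6 animals of both sexes aged 8 to 12 weeks with no engineered allele in the labels, and every sample was a different pool of 10 to 15 mice. The enzyme, the tracheal section and the gate of the sort differ between the groups along with the cell type, and their effects cannot be told apart.

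Myoepithelial cells are epithelial cells that wrap the secretory units and ducts of glands such as the mammary, salivary and airway submucosal glands. They combine the keratins of basal epithelium with the contractile apparatus of smooth muscle, and their contraction moves secretion towards the lumen. In that apparatus, smooth muscle myosin pulls on filaments of smooth muscle actin once myosin light chain kinase has phosphorylated the regulatory light chain, while tropomyosin and calponin lie along the actin filament. In the mammary gland the signal is oxytocin, acting through its receptor. Many of these genes are switched on by serum response factor, which binds a DNA motif called the CArG box.

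The arrays carried no detection calls, so the brightest of 27 probe sets for Bacillus transcripts, which no mouse RNA should fill, served as each array's background: 39.5, 55.9 and 61.9 on the duct arrays and 59.7 and 86.5 on the basal arrays. The share of all probe sets above that level was 67.2 to 74.6% on the duct arrays and 62.5 to 71.6% on the basal arrays. Duct replicate 1 stood apart with a median intensity of 92.3, against 149.1 and 149.4 on the other duct arrays and 152.8 and 146.5 on the basal arrays. Both groups carried the keratins and adhesion genes of basal epithelium. Krt5 read 16830, 17750 and 19821 in duct cells and 12334 and 11617 in basal cells, and Trp63, the transcription factor of basal epithelium, read 7243, 7053 and 6944 in duct cells and 9891 and 8038 in basal cells. In bulk samples, fewer cells of a type and less RNA per cell cannot be told apart, and with so few arrays every value below has limited precision.

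The contractile genes ranged from background to far above it. Of the 22 probe sets, 11 (50%) lay above background on all 5 arrays, 8 (36.4%) on some and 3 (13.6%) on none, and over all 45037 probe sets these shares were 51%, 36.5% and 12.5%, close to those of the members. Those above numbered 12, 17 and 16 on the duct arrays and 15 and 13 on the basal arrays. Actg2, Tagln, Cnn1 and Oxtr, genes typical of smooth muscle, had no probe set above background on more than 1 array. Myh11, also typical of smooth muscle, had 1 probe set above background on all 5 arrays, and Myl9 was above it on 4. Tpm1, Tpm2 and Mylk, which nonmuscle cells also use, had probe sets well above background on all 5 arrays, and Acta2 had 1 above it on all 5.

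No contractile gene passed the test between the groups. The dimmest 40% of probe sets were not tested, which left 6 of the 10 genes and 14 of the 22 probe sets. The test was limma's on log2(intensity + 16), a scale that understates the change of dim genes. At an adjusted p under 0.05, 0 of the 6 genes were called, against 0.973% of all 12536 genes tested, and 0 of the 14 probe sets, against 0.233% of all 27022. At an unadjusted p under 0.05 there were 3 genes, Acta2, Myh11 and Tpm2, against 18.5% of all genes, and 5 probe sets, against 14.9%. Duct arrays lay above both basal arrays for 7 of the 22 probe sets, against 11.8% of all 45037, and below both for 2, against 17% of all. The other 13 overlapped. Most of the 7 belonged to Tpm1 and Tpm2, so they are not separate genes, and the Oxtr probe set among them lay below background on every array. Of the tested genes, 3 had a positive and 3 a negative fold change, with a median of 0.12 (log2, duct minus basal), while the median of all tested genes was -0.12 and 41.6% of them were positive. Without the filter the median of all 10 members was 0.40. That median takes in Actg2, Tagln, Cnn1 and Oxtr, whose readings lay below background on all or all but 1 array.

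**Figure D1:**
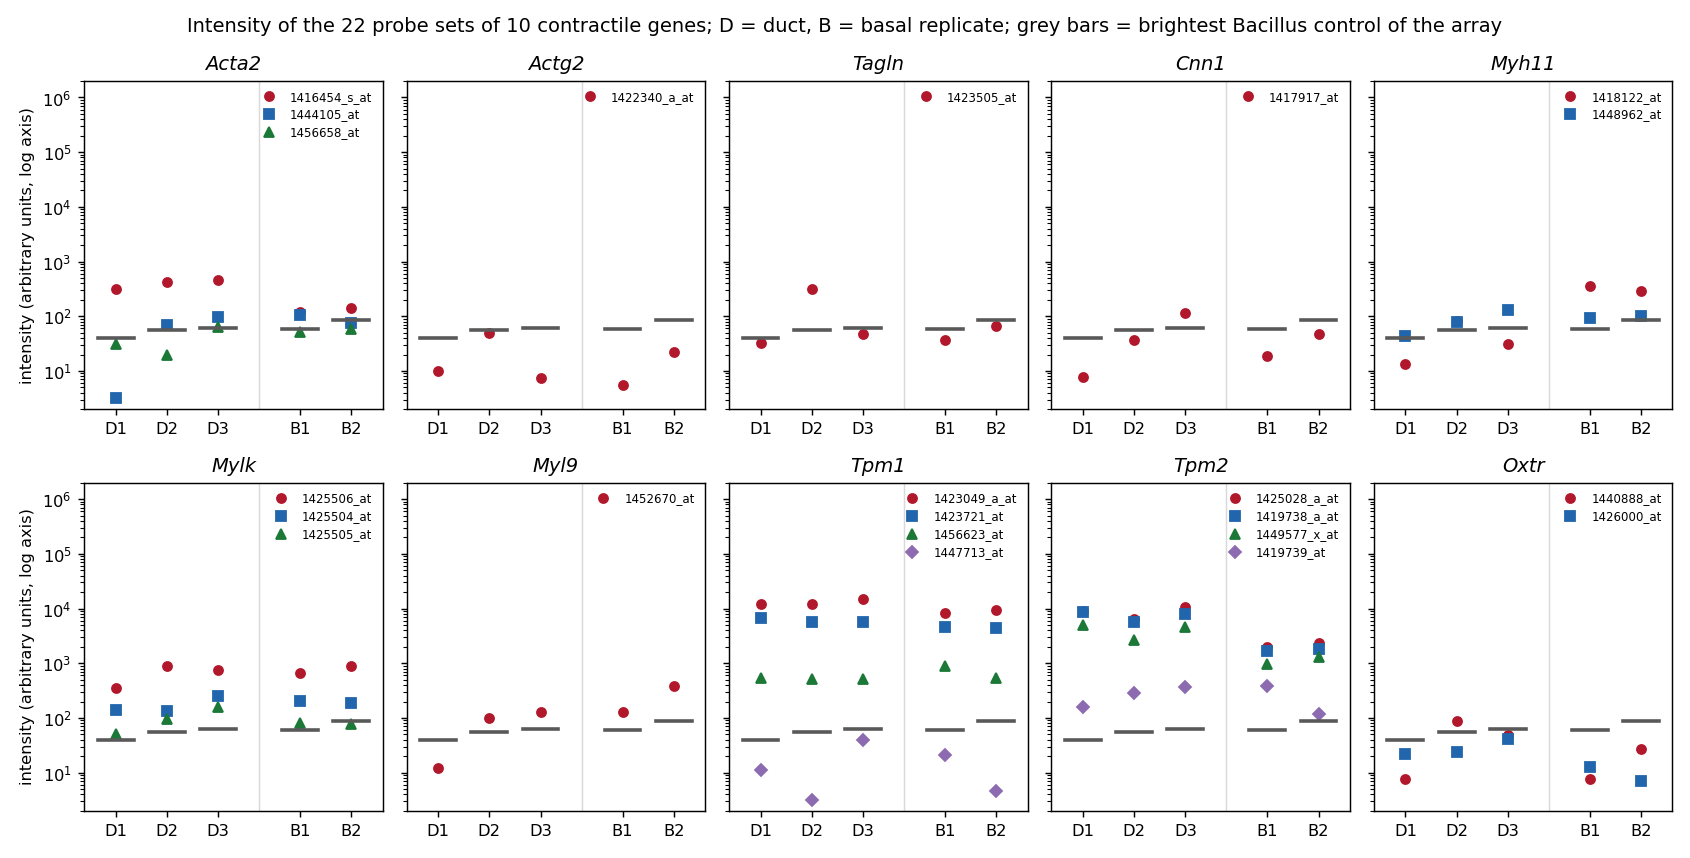
Intensity of each of the 22 probe sets on the 3 duct (D1 to D3) and 2 basal (B1, B2) arrays, on a log axis in arbitrary units, 1 panel per gene and 1 symbol per probe set. Grey bars mark the brightest Bacillus control of each array (39.5 to 86.5). The symbols that stand furthest above the bars belong to 2 probe sets of Tpm1 and 3 of Tpm2, and for those of Tpm2 the duct symbols lie above the basal ones.

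The promoters of the members with an entry in the RefSeq table (build GRCm38.p6) were searched for motifs, and 3 stretches are shown because they belong to the genes with the most separated groups or with a CArG box. An entry existed for 7 members: Acta2, Cnn1, Mylk, Myl9, Tpm1, Tpm2 and Oxtr. The 250 bases before each start were read on both strands. An exact CArG box was found in 1 of the 7, Myl9, 161 bases before the start, and in 1.47% of all 32851 promoters. With at most 1 base off, which includes the exact boxes, CArG boxes were found in Acta2 (84 and 34 bases before the start), Myl9 (161 and 99) and Tpm1 (221 and 80), that is 3 of 7, against 18.6% of all promoters. The GC-rich motif GGGCGG was in 4 of 7 (Myl9, Tpm1, Tpm2 and Oxtr), against 32.7%. The motif CATTCC, bound by TEAD factors, was in 3 of 7 (Acta2, Mylk and Tpm1), against 12.6%, and TATAAA in 0 of 7, against 12.4%, which says only that those letters are not in these windows. In the lines below, capitals mark CArG boxes with at most 1 base off in Acta2 and Myl9 and GGGCGG in Tpm2, with no motif overlapping another.
Acta2, chr19:34255398-34255473, minus strand, 100 to 25 bases before the start: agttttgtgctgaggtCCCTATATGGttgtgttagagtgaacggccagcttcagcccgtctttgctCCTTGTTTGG
Myl9, chr2:156775294-156775404, plus strand, 170 to 60 bases before the start: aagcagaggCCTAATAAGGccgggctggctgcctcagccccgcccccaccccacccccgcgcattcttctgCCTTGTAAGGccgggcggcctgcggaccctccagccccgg
Tpm2, chr4:43523585-43523724, minus strand, 170 to 31 bases before the start: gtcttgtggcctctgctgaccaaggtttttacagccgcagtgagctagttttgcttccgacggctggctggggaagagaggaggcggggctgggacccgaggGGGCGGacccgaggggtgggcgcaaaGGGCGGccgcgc

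The 3 stretches differ in base content as well as in motifs. The Acta2 stretch lies inside the annotated span of Acta2 on chromosome 19 (34240336 to 34255585). This is because the table's start is not the outermost one of the gene. The whole searched windows of Mylk, Tpm1 and Oxtr also lie inside the annotated spans of their genes, and so do the motifs counted in them. The Acta2 window held 4 CpG dinucleotides, those of Cnn1 and Mylk 3 each, that of Oxtr 12, and those of Myl9, Tpm2 and Tpm1 16, 17 and 19, against a median of 6 over all promoters. Their GC content was 53.6% in Acta2 and Mylk, 59.2% in Cnn1, 61.6% in Oxtr, 65.2% in Tpm1, 69.6% in Tpm2 and 70.0% in Myl9, against a median of 52.4%. A motif match describes the sequence and shows no binding.

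Acta2 encodes smooth muscle alpha-actin, the actin by which myoepithelial cells are usually stained. Its most intense probe set, 1416454_s_at, read 316, 429 and 459 on the duct arrays and 119 and 142 on the basal arrays. All 3 duct arrays lay above both basal arrays, and all 5 lay above background: 7.41 to 8.01 times the brightest Bacillus control in duct cells and 1.64 and 2.00 times in basal cells. The mean was 401 ± 75.2 (SD, n = 3) in duct cells and 130.4 ± 15.9 (SD, n = 2) in basal cells, 3.08-fold higher in duct cells. The log2 fold change was 1.50 (SE 0.27, 95% interval 0.83 to 2.17), and limma's adjusted p was 0.0751 by gene, which misses the threshold. Its promoter stretch above carries a pair of imperfect CArG boxes, as does the window of Tpm1, and a link to the readings was not tested.

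The other Acta2 probe sets lay near background. Probe set 1444105_at read 3.24, 70.4 and 96.6 in duct cells and 106 and 76.7 in basal cells, and 1456658_at read 31.7, 19.7 and 64.8 in duct cells and 51.8 and 57.6 in basal cells. They were above background on 3 and 1 of the 5 arrays, overlapped between groups and were too dim to be tested, so they offer no check of the first. They come from other source sequences than 1416454_s_at, and the ending _s_at marks a probe set that can match transcripts of more than 1 gene. With the mean of the 3 probe sets in place of the most intense one, Acta2 had a log2 fold change of 0.05 (adjusted p = 0.962, limma), a mean that takes in both probe sets near background.

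Actg2, the gamma actin of visceral smooth muscle, was not above background on any array. Its probe set 1422340_a_at read 9.87, 49.6 and 7.46 in duct cells and 5.53 and 21.9 in basal cells. No fold is given for it, since both groups lay below background.

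Tagln encodes transgelin (SM22-alpha), an actin-binding protein of smooth muscle. Probe set 1423505_at read 32.6, 318 and 47.6 in duct cells and 37.1 and 65.3 in basal cells. Only duct replicate 2 was above background, at 5.69 times the brightest Bacillus control, and the other 4 arrays lay between 0.62 and 0.83 times it. No fold is given, since the groups overlapped and duct replicates 1 and 3 also lay below background. The probe set was too dim overall to be tested.

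Cnn1 encodes calponin 1, which binds actin and slows smooth muscle myosin. Probe set 1417917_at read 7.75, 37.6 and 114 in duct cells and 18.5 and 46.5 in basal cells. Here duct replicate 3, not replicate 2, was the single array above background, so Tagln and Cnn1 did not stand out on the same array.

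The summed markers of other cell types varied between the duct arrays. On duct replicate 2, where Tagln was high, the 9 pericyte and vascular smooth muscle genes summed to 1181, against 1143 and 1483 on duct replicates 1 and 3 and 812 and 1165 in basal cells. That sum hides single genes that differed. On duct replicates 1, 2 and 3, Rgs5 read 60.2, 243 and 83.1, highest on replicate 2. Pdgfrb read 119, 48.9 and 205, lowest on replicate 2. On duct replicate 3, where Cnn1 was high, the 7 cartilage genes summed to 1269, against 495 and 1250 on duct replicates 1 and 2 and 855 and 738 in basal cells. The 8 fibroblast genes summed to 1926, 4904 and 4706 on the duct arrays and to 4020 and 4823 on the basal arrays. A single gene, Dcn, made up most of each fibroblast sum, at 1520, 3123 and 2524 in duct cells and 3106 and 4090 in basal cells. The part of such cells in the readings of Tagln and Cnn1 was not tested.

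Tpm2 encodes beta-tropomyosin, which stabilises actin filaments in smooth and slow skeletal muscle and in some nonmuscle cells. Its most intense probe set, 1425028_a_at, read 8947, 6525 and 10490 in duct cells and 2005 and 2341 in basal cells. The lowest duct array was well above the higher basal array. The mean was 8654 ± 1999 (SD, n = 3) in duct cells and 2173 ± 237 (SD, n = 2) in basal cells, 3.98-fold higher in duct cells. The log2 fold change was 1.96 (SE 0.30, 95% interval 1.23 to 2.69) with an adjusted p of 0.0551 by gene (limma), just short of the threshold. The same fit gave adjusted p-values from 0.000131 to 0.320 under 15 other settings, all with the same direction, and 5 of these called Tpm2: quantile normalization (0.0452), median centring (0.00747), a pseudocount of 64 (0.0271), a filter at 60% (0.0212) and an intensity trend with robust prior (0.000131).

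A further pair of Tpm2 probe sets behaved like it. Probe set 1419738_a_at read 8787, 5615 and 8101 in duct cells and 1657 and 1862 in basal cells, 4.26-fold higher in duct cells by the means, and 1449577_x_at read 5013, 2647 and 4584 in duct cells and 968 and 1287 in basal cells, 3.62-fold higher. Their log2 fold changes were 2.06 and 1.80, and limma's adjusted p-values by probe set were 0.0889 and 0.141, beside 0.0963 for 1425028_a_at. In all 3 the duct arrays lay above the basal arrays, with duct replicate 2 the lowest of the duct arrays. The endings _a_at and _x_at mark probe sets that match several transcripts, of 1 gene or of similar sequence.

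The last Tpm2 probe set disagreed. Probe set 1419739_at read 158, 292 and 363 in duct cells and 380 and 119 in basal cells, with a log2 fold change of 0.24 (adjusted p = 0.871, limma by probe set). Its groups overlapped and its basal arrays differed widely from each other. It was made from the same source sequence as 1419738_a_at and 1449577_x_at, so the disagreement lies within 1 gene model.

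Tpm1 encodes alpha-tropomyosin, whose splice forms serve skeletal, cardiac and smooth muscle and nonmuscle cells. Probe set 1423049_a_at read 11966, 12197 and 14781 in duct cells and 8375 and 9285 in basal cells. Probe set 1423721_at read 6815, 5619 and 5779 in duct cells and 4581 and 4422 in basal cells. In both, every duct array exceeded both basal arrays, by 1.47-fold and 1.35-fold in the means. The log2 fold changes were 0.55 (SE 0.24, adjusted p = 0.301, limma by gene) and 0.43 (adjusted p = 0.493, limma by probe set), so neither passed the test.

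The dimmer Tpm1 probe sets pointed elsewhere. Probe set 1456623_at read 545, 509 and 527 in duct cells and 908 and 541 in basal cells, with overlap and a log2 fold change of -0.40 (adjusted p = 0.594, limma by probe set). The 3 duct arrays were close to each other, at 527 ± 17.9 (SD), while basal replicate 1 was high. Probe set 1447713_at, at 11.0, 3.14 and 39.5 in duct cells and 21.1 and 4.57 in basal cells, was at or below background on all 5 arrays.

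**Figure D2:**
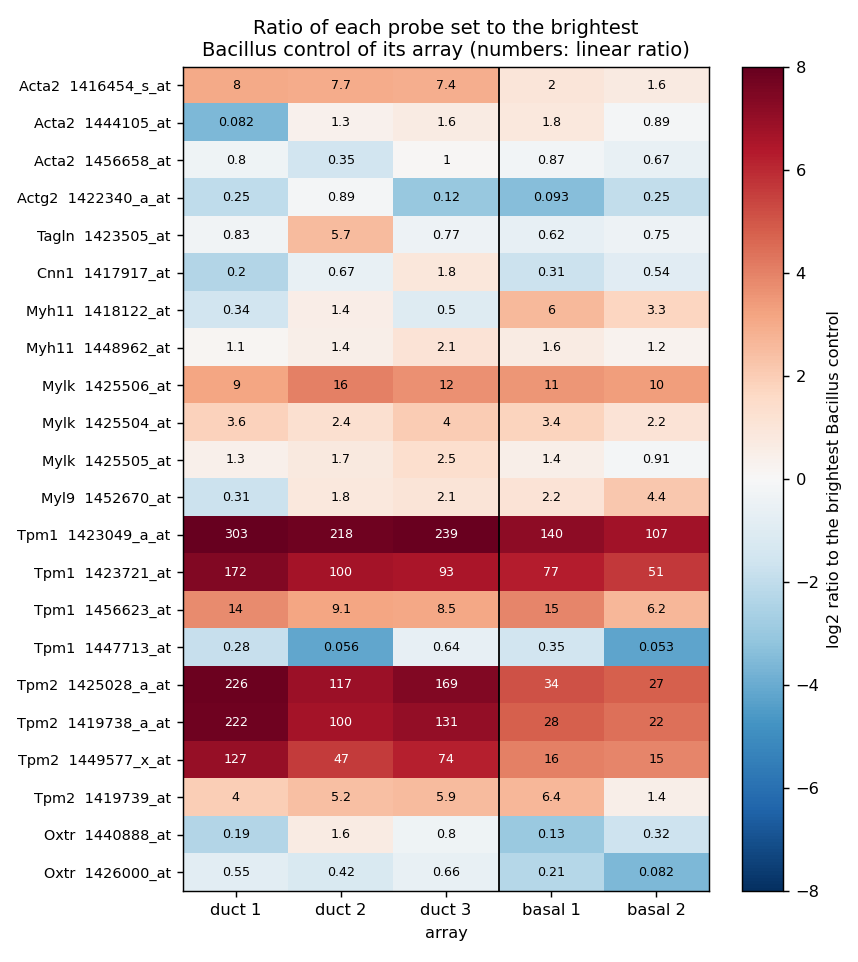
Ratio of each of the 22 probe sets (rows) to the brightest Bacillus control of the same array (columns, 3 duct then 2 basal), coloured on a log2 scale with the linear ratio printed in each cell. Rows of Tpm1 and Tpm2 hold the dark red cells, and the Tagln row has a single red cell, on duct replicate 2, at 5.69 times the control.

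Myh11 encodes the smooth muscle myosin heavy chain, the motor of the apparatus and one of the most specific smooth muscle genes. Probe set 1418122_at read 13.6, 80.7 and 30.7 in duct cells and 357 and 289 in basal cells, so duct cells were the lower group. Above background were 1 of 3 duct arrays and both basal arrays. The mean was 41.7 ± 34.9 (SD, n = 3) in duct cells and 323 ± 48.3 (SD, n = 2) in basal cells. The log2 fold change was -2.72 (SE 0.52, 95% interval -4.00 to -1.44), and limma's adjusted p was 0.0806 by gene. Thus the actin Acta2 and the myosin Myh11 had fold changes of opposite sign, each short of the threshold.

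The second Myh11 probe set, made from the same source sequence, had no such gap. Probe set 1448962_at read 44.1, 78.0 and 131 in duct cells and 93.6 and 103 in basal cells, with overlap and a log2 fold change of -0.28 (adjusted p = 0.789, limma by probe set). It was above background on all 5 arrays, at 1.12 to 2.12 times the brightest Bacillus control in duct cells and 1.57 and 1.19 times in basal cells. The Myh11 difference was thus seen in 1 of its 2 probe sets, and the mean of both gave a log2 fold change of -1.50 (adjusted p = 0.130, limma).

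Myl9 encodes the regulatory light chain that is phosphorylated to start contraction. Probe set 1452670_at read 12.1, 101 and 128 in duct cells and 128 and 379 in basal cells. The groups were separated by less than 1 unit, between duct replicate 3 (127.6) and basal replicate 1 (128.3), and the arrays within each group spread widely. The mean was 80.1 ± 60.4 (SD, n = 3) in duct cells and 254 ± 177 (SD, n = 2) in basal cells. The log2 fold change was -1.62 with an SE of 0.82 and an adjusted p of 0.356 (limma by gene). Its promoter stretch above holds the single exact CArG box found among the members.

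Mylk encodes myosin light chain kinase, the calcium-dependent enzyme that phosphorylates Myl9 and which nonmuscle cells also make. Probe set 1425506_at read 355, 905 and 767 in duct cells and 677 and 895 in basal cells, above background on all 5 arrays. The groups overlapped, with duct replicate 1 the lowest array, and the log2 fold change was -0.30 (95% interval -1.41 to 0.80, adjusted p = 0.759, limma by gene). Without duct replicate 1 it was 0.10. Mylk was thus clearly measured in both groups, and a difference of up to 1.41 on the log2 scale towards basal cells or 0.80 towards duct cells lay within its interval.

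The other Mylk probe sets, from the same source sequence, were dimmer readings of the same overlap. Probe set 1425504_at read 143, 135 and 248 in duct cells and 201 and 186 in basal cells, and 1425505_at read 52.0, 97.0 and 156 in duct cells and 82.1 and 78.4 in basal cells. Their log2 fold changes were -0.18 and 0.19 (adjusted p = 0.835 and 0.866, limma by probe set), so the 3 probe sets differ in sign while all lie near 0.

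Oxtr encodes the oxytocin receptor, through which oxytocin contracts mammary myoepithelium. Probe set 1440888_at read 7.62, 89.6 and 49.5 in duct cells and 7.58 and 27.6 in basal cells, with only duct replicate 2 above background. Probe set 1426000_at read 21.8, 23.7 and 40.7 in duct cells and 12.5 and 7.07 in basal cells, higher in every duct array and yet below background on all 5 arrays. No fold is given for either, and neither was bright enough to be tested.

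Probe sets of 1 gene disagreed, by sign or by more than 1 on the log2 scale, in 5 of the 6 members that have several: Acta2, Myh11, Mylk, Tpm1 and Tpm2. For Acta2 this sets 1 measured probe set against 2 near background. Those of Oxtr could not be compared, with all but 1 of their 10 readings below background. Actg2, Tagln, Cnn1 and Myl9 have 1 probe set each and offer no such check. Agreement was found between the most intense probe sets, 3 of 4 in Tpm2 and 2 of 4 in Tpm1. Tpm1 1456623_at (-0.40) and Tpm2 1419739_at (0.24) were also above background on all 5 arrays and did not share it.

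**Figure D3:**
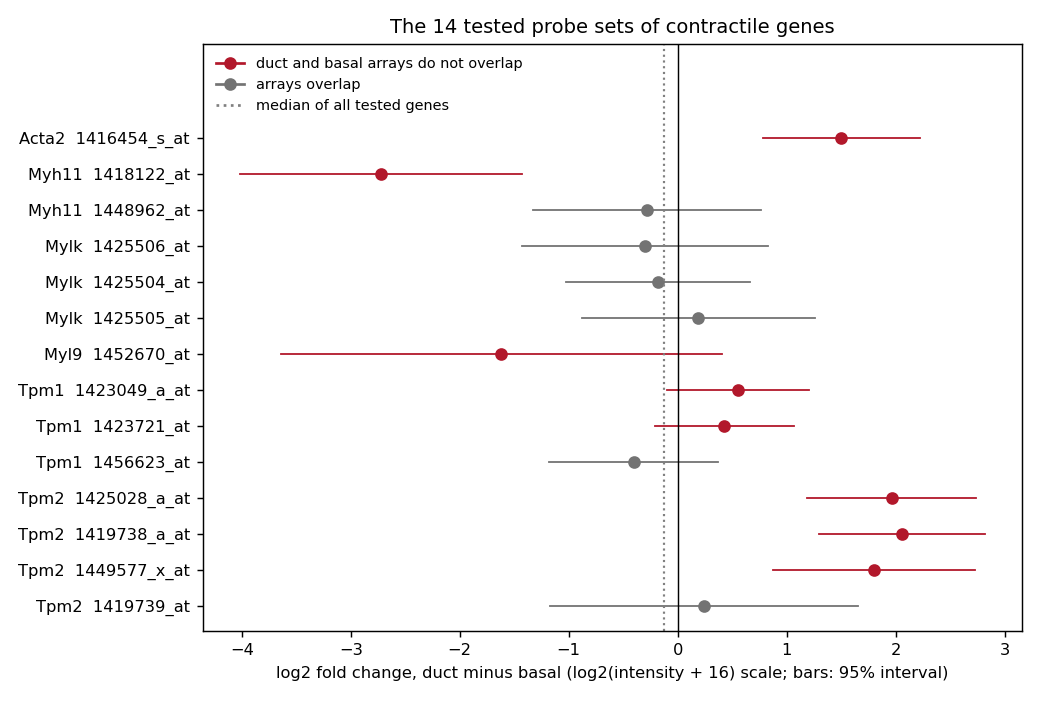
Log2 fold change, duct minus basal, of the 14 tested probe sets (points) with 95% intervals from limma (bars). Red marks probe sets whose duct and basal arrays do not overlap, and the dotted line marks the median of all tested genes, -0.12. Of the Tpm2 probe sets, 3 lie at 1.80 to 2.06 and the other at 0.24, and 1 of 2 Myh11 probe sets lies at -2.72.

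Among the nonmuscle relatives of these genes, which build the cytoskeleton of most cells, 1 of 13 rose and 0 fell, against 0.838% and 0.136% of all genes tested, with a median log2 fold change of 0.11. The gene that rose was Cnn3, the calponin of nonmuscle cells. Cnn3 read 1838, 2352 and 2863 in duct cells and 165 and 320 in basal cells, 9.69-fold higher in duct cells by the means (log2 fold change 3.24, SE 0.37, adjusted p = 0.0306, limma). It was not called when any 1 of the 5 arrays was left out. All 13 relatives, including the actins Actb and Actg1 and the myosin Myh9, were above background on all 5 arrays, which neither Cnn1 nor Actg2 was.

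Other structural genes of smooth muscle gave no call. Of 12 genes of the smooth muscle cytoskeleton, 9 were tested, 7 had a positive fold change and the median was 0.39, while 41.6% of all tested genes were positive and their median was -0.12. Csrp1, an actin-bundling LIM protein, had 12162, 13866 and 12741 in duct cells and 12076 and 9560 in basal cells (log2 fold change 0.26, adjusted p = 0.606, limma). Vcl, which encodes vinculin of cell-matrix junctions, had 4840, 3469 and 3094 in duct cells and 1607 and 1692 in basal cells, with a log2 fold change of 1.17 (adjusted p = 0.122, limma). Des, the muscle intermediate filament desmin, was below background on all 5 arrays. Smtn, which encodes smoothelin, was higher in duct cells but was too dim to be tested. Smtn read 101, 93.9 and 76.3 in duct cells, all above background, and 11.3 and 5.49 in basal cells, both below it. That is at least 1.25-fold higher in duct cells with basal cells taken at background. Des and Smtn were named after their values were seen.

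Genes that control contraction were tested in 10 of 11 cases, with 0 called and a median of 0.12. Ppp1cb, a catalytic subunit of myosin phosphatase, had a log2 fold change of 0.42 (adjusted p = 0.406, limma). Receptors and calcium channels that trigger contraction were tested in 7 of 10 cases, with 0 called and a median of -0.23. The 2 with the highest mean level were Gna11, a G-protein subunit, at -0.23 (adjusted p = 0.711), and Plcb3, a phospholipase C, at -0.08 (adjusted p = 0.914, both limma).

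Of the genes that myoepithelium shares with basal epithelium, a pair of keratins passed the test. Of 10 genes of basal and myoepithelial epithelium, all tested, 2 rose and 0 fell, against 0.838% and 0.136% of all genes tested, with a median of -0.10. By sign, 5 were positive and 5 negative. The negative ones included Ngfr (log2 fold change -1.76, adjusted p = 0.0786), Cav1 (-1.23, 0.0828) and Cdh3 (-0.93, 0.201, all limma). Krt14, a keratin of basal and myoepithelial cells, read 18615, 18421 and 22413 in duct cells and 1327 and 1533 in basal cells, 13.9-fold higher in duct cells by the means (log2 fold change 3.78, adjusted p = 0.00595, limma). Krt17 read 8215, 8310 and 7611 in duct cells and 2322 and 2268 in basal cells, 3.51-fold higher (log2 fold change 1.80, adjusted p = 0.0362, limma). With 1 array left out, 0 or 1 of the 2 was called. Markers of other cell types differed between the same groups: all 7 squamous epithelium genes rose, with a median log2 fold change of 5.68 and a summed intensity of 78562 to 101810 in duct cells and 8683 and 10678 in basal cells. The 5 thyroid genes, of which 3 were tested and 1 rose, summed to 9162 to 20895 in duct cells and to 248 and 225 in basal cells. Nearly all of the duct sums came from the gene that rose, Tg. Tg read 8779, 16062 and 20119 in duct cells and 11.1 and 53.2 in basal cells. Slc26a4 was below background on every array. The part of squamous or thyroid cells in the values of Krt14, Krt17 and the contractile genes was not tested. The 6 general epithelial genes, all tested, had 0 calls and a median of 0.13.

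**Figure D4:**
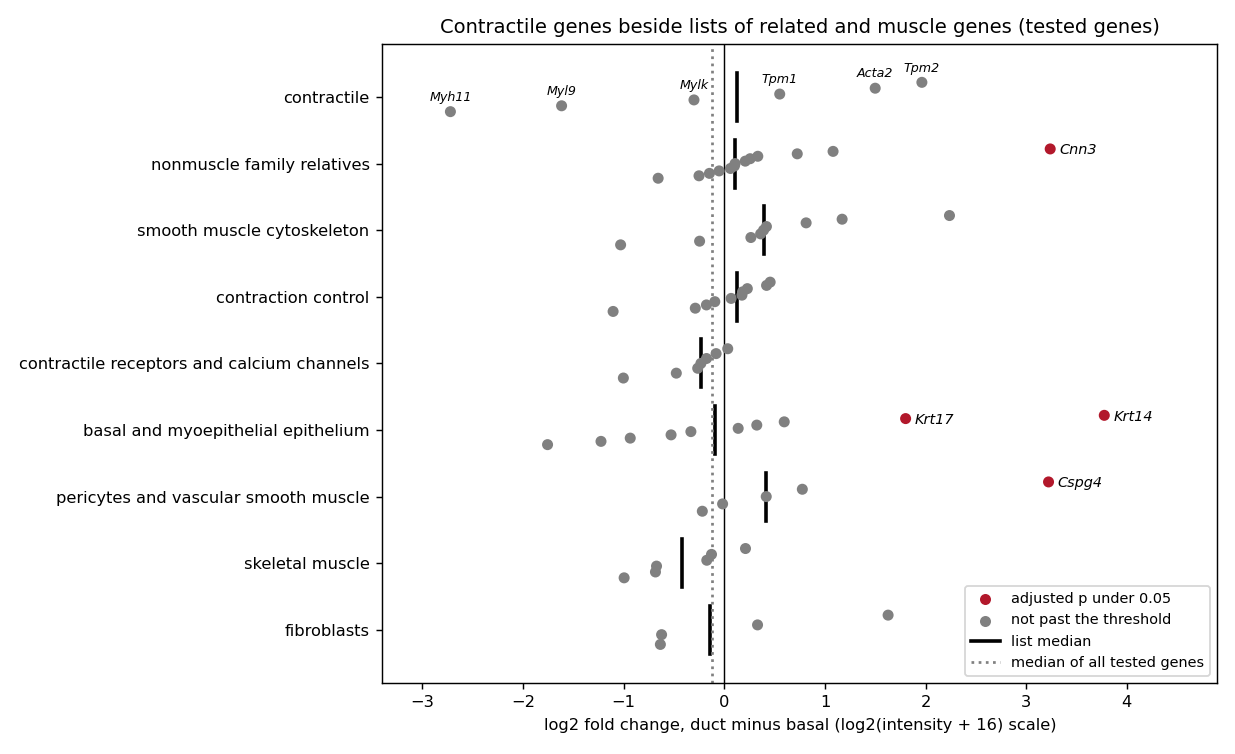
Log2 fold change, duct minus basal, of each tested gene (points) in the contractile set and in 8 lists of related and muscle genes, with a bar at each list's median and a dotted line at the median of all tested genes, -0.12. Red marks genes with an adjusted p under 0.05. The contractile genes run from -2.72 (Myh11) to 1.96 (Tpm2) with none in red.

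The muscle and vessel lists hold other possible sources of these transcripts. Pericytes and vascular smooth muscle had 1 gene of 5 tested that rose, Cspg4, the NG2 proteoglycan of pericytes. The others tested were not called, with log2 fold changes of 0.42 for Rgs5, 0.78 for Pdgfrb, -0.22 for Notch3 and -0.02 for Higd1b. Cspg4 read 393, 297 and 317 in duct cells and 24.4 and 18.7 in basal cells. Both basal arrays lay below background, so the difference is given as at least 4.64-fold higher in duct cells with basal cells taken at background (adjusted p = 0.00937, limma). It was still called without duct replicate 1, and not without any 1 of the other 4 arrays. The 9 genes of that list summed to 1143 to 1483 in duct cells and 812 and 1165 in basal cells. Cspg4 made up part of the duct sums and little of the basal ones. Above background on all 5 arrays were 2 of the 9, and Itga8 was above it on none. The 13 skeletal muscle genes summed to 899 to 1235 in duct cells and 1595 and 1149 in basal cells, with 6 tested, 0 called, and Acta1, Myh4 and Tnnt3 below background on all 5 arrays. The part of these cell types in the values of Acta2 and Myh11 was not tested.

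Of the 8 fibroblast genes 4 were tested and 0 called, and of the 7 cartilage genes 6 were tested and 0 called; both sums given above were lowest on duct replicate 1. Duct replicate 1, which had the lowest median intensity, gave the lowest duct reading of Myh11, Myl9, Mylk (1425506_at), Tagln, Cnn1, Oxtr and Acta2 (1416454_s_at), but the highest of Tpm1 1423721_at and 1456623_at and of Tpm2 1419738_a_at and 1449577_x_at. Without it the log2 fold change was 1.66 for Acta2, -2.33 for Myh11, -0.88 for Myl9, 0.10 for Mylk, 0.61 for Tpm1 and 1.93 for Tpm2, none of them called.

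Over the 5 arrays on the log2 scale, the tested genes whose pattern was most like that of Acta2 (1416454_s_at) were Fermt2 (Pearson's r = 0.999), C4bp-ps1 (0.998), Efna3 (0.996), Ndufb10 (0.994) and Auts2 (0.994). These r are a description over 5 arrays in 2 groups, and 22 of the 12535 other genes exceeded 0.99. Among the tested members, each by its most intense probe set, Tpm1 (0.963) and Tpm2 (0.948) had a positive r. Mylk (-0.08), Myl9 (-0.44) and Myh11 (-0.84) had a negative r. How many other genes reach the r of Tpm1 or Tpm2 was not counted, and a gene higher on all duct arrays tends to a high r here. Fermt2, which encodes the integrin regulator kindlin-2, read 503, 559 and 583 in duct cells and 346 and 362 in basal cells.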

How the data were processed

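RNA from 5 pools was hybridised to Affymetrix mouse genome arrays, per the series' design text. The deposited values are linear intensities, 1 for each probe set on an array. From these values, the authors had scaled every array: its mean without the lowest and highest 2% is 500. The sources used here do not give the summary method, the background correction or the software.

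Of 45101 probe sets, 64 controls were left out of the tests, and 34945 had 1 gene symbol in the platform annotation, 932 several and 9160 none. Each of the 10 members matched a RefSeq gene by Entrez identifier. For a fit by gene, the probe set with the highest mean log2(intensity + 16) stood for a gene. Probe sets in the lowest 40% by that mean were left out, which gave 12536 genes and, in a separate fit, 27022 probe sets. limma 3.58.1 (lmFit, eBayes) was run under R 4.3.3 with statmod 1.5.0 as a 2-sided test on 5 arrays with 3 residual degrees of freedom, no covariates and Benjamini-Hochberg adjustment with a threshold of 0.05. All adjusted p-values are limma's. Fold changes are duct minus basal, and means ± SD are of linear intensities. Where all arrays of a group lay at or below the brightest Bacillus probe set of the array, any fold given is a bound, from means of log2 values.

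The members, the gene lists and the tests were chosen with earlier results of these data known. Named genes are all members, up to 4 called genes of each list by size, the 2 with the highest mean where none was called, and the 5 most like Acta2, leaving out clone and RIKEN names. Outside this rule are Krt5 and Trp63, given as defining markers, and genes given only as above or below background. Also outside it, and picked after their values were seen, are Smtn, Ngfr, Cav1, Cdh3, Rgs5, Pdgfrb, Notch3 and Higd1b. Not every gene that the rule names is reported here. The lists not described elsewhere were endothelium (1 of 6 tested, 0 called) and leukocytes (4 of 6 tested, 0 called).

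Alternatives were quantile normalization, median centring, pseudocounts of 1 and 64, averaging all probe sets of a gene, no filter or one that removes the dimmest 60%, leaving out _x_at and _s_at probe sets, an intensity trend with robust prior, the replicate block and each array left out. The replicate numbers do not pair samples: pools were separate, and the deviations of same-numbered arrays correlated at -0.08 and -0.04. No arrays shared more than 1 identical value, and the labels name no batch. The fit was tested on simulated data. Figures were drawn with matplotlib 3.10.9.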

Additional observations from a re-analysis of the deposited data

How the results depend on the processing

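As reported, 0 contractile genes and 0 probe sets were called either way. The number of genes called higher was 2 with quantile normalization, 2 with median centring, 1 with a pseudocount of 64, 2 with the lowest 60% left out and 2 with the intensity trend, and the number called lower was 1 with median centring, 1 with a pseudocount of 64 and 1 with the trend. For probe sets, the numbers called higher were 2 with median centring, 2 with a pseudocount of 64, 2 with the lowest 60% left out and 4 with the trend, and the numbers called lower were 1 with median centring and 1 with the trend. The cause was not tested, except that the 60% filter tests fewer genes. Acta2 was called with quantile normalization (adjusted p = 0.0452), median centring (0.0410) and the 60% filter (0.0333), Myh11 with median centring (0.00170), a pseudocount of 64 (0.0382) and the trend (0.0296), and Tpm1 with the trend (0.0298). With each array left out in turn, 0 genes and 0 probe sets were called (0 to 0).

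The members' median log2 fold change was 1.02 with the lowest 60% left out, since Myh11 and Myl9 were then untested, -0.30 without _x_at and _s_at probe sets, where Acta2 was untested, and -0.01 to 0.35 with 1 array left out. The median of all genes was -0.05 with quantile normalization and 0.10 with median centring. Tpm2, Acta2, Myh11, Myl9 and Tpm1 kept their sign by gene in every alternative that tested them.

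Signs turned for values near 0. With 1 array left out, Mylk by gene and its probe set 1425506_at ran from -0.56 to 0.10 (0.10 without duct replicate 1), Myh11 1448962_at from -0.60 to 0.042 (without duct replicate 1), Mylk 1425505_at from -0.13 (without duct replicate 3) to 0.53, and Tpm2 1419739_at from -0.54 (without basal replicate 2) to 1.02. Mylk 1425504_at was 0.015 with quantile normalization and 0.035 with median centring, and Mylk 1425505_at was -0.13 with the replicate block. With the replicate block, which uses the 4 arrays that share a number, 0 members were called, and Tpm2 had a log2 fold change of 1.81 (adjusted p = 0.320), Acta2 1.40 (0.327) and Myh11 -2.66 (0.321).

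Over all genes, 105 were called higher and 17 lower. These numbers were 311 and 71 with median centring, 208 and 95 with a pseudocount of 64, 35 and 1 without a filter, 250 and 158 with the 60% filter, 565 and 377 with the trend, 0 and 0 with the replicate block, and 0 to 46 and 0 to 2 with 1 array left out. The number called lower was 28 with quantile normalization and 49 with the mean of probe sets. Over all probe sets, 58 higher and 5 lower became 97 higher with quantile normalization, 357 and 66 with median centring, 167 and 39 with a pseudocount of 64, 27 and 0 without a filter, 245 and 96 with the 60% filter, 798 and 417 with the trend, and 0 to 25 and 0 to 1 with 1 array left out. Of the 22 member probe sets, 11 lay at or below background on at least 1 array, which limits what can be read from Actg2, Tagln, Cnn1 and Oxtr. It also limits the fold changes of Myh11 1418122_at and Myl9, through their duct readings, and the dimmest probe sets of Acta2, Mylk and Tpm1.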
